A study of Mus musculus with 6 samples.

Results

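A set of 10 genes induced by interferon was followed in mouse quadriceps muscle with and without Pofut1: Ifi202b, Trim12a, Oas1a, Oasl1, Oasl2, Ifit1, Ifit2, Ifit3, Isg15 and Irf7. They were taken by name, and a gene was measured where the array annotation paired at least 1 probe set with that gene alone. This gave values for 9 of the 10 genes, out of 18194 named genes in all. The probe set of Isg15 is annotated with a second gene as well, so Isg15 has no value of its own. The names were chosen by the knockout minus control differences of these same arrays, so for these 9 genes the differences are described and not tested.

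Interferons are secreted proteins of the antiviral response. Type I interferon binds the receptor pair Ifnar1 and Ifnar2, and signalling through the kinases Jak1 and Tyk2 switches on target genes through a DNA element in their promoters. The targets include RNA sensors and effectors such as the Oas and Ifit families, DNA-binding proteins of the Ifi200 family, the ubiquitin-like modifier Isg15, and the transcription factor Irf7, which drives further interferon synthesis.

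The knockout group was 3 quadriceps samples of mice carrying a Cre transgene under the skeletal α actin promoter and floxed Pofut1 on both alleles. The control group was 3 quadriceps samples with that same Cre transgene and wild-type Pofut1. Both groups were labelled strain C57/Bl6 and were 2 months of age. Pofut1 encodes the enzyme that attaches O-linked fucose to EGF-like repeats, as on Notch receptors, and the promoter directs Cre to skeletal muscle fibres, so other cells of the muscle are not its target. Whole muscle RNA was hybridised to 1 array per sample, and nothing in the labels says whether samples were pooled. In whole tissue, fewer cells of a type and less RNA per cell cannot be told apart.

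The arrays were not alike in quality. The array labelled control replicate 3 correlated with the other arrays at 0.940 to 0.945 over the named genes, whereas every other pair correlated at 0.980 or above. Its 3' over 5' intensity ratio of Gapdh, a sign of RNA integrity, was 10.5, knockout replicate 2 had 3.70, and the remaining 4 arrays had 1.73 to 1.97. The Pofut1 intensity was 194.3 to 231.1 over the knockout arrays, against 301.4 and 379.8 in control replicates 1 and 2 and 90.6 in control replicate 3, so the array labelled control replicate 3 went against its label. All 12 muscle fibre markers measured were above background, among them Acta1, skeletal alpha-actin. Background here is an intensity of 72.6, the 95th percentile over 36 genes restricted to other tissues. The difference of each of the 9 measured genes is given with and without control replicate 3.

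The DNA element was sought in the promoters of these genes. Those of Ifit1, Ifit3 and Oas1a are shown as carriers of the element. Those of Trim12a and Ifi202b are shown as the genes with the largest mean differences. The core searched was GAAA, any 2 bases and GAAA again, which reads TTTC, any 2 bases and TTTC when it lies on the other strand. It was sought on both strands in windows (GRCm38.p6) from 250 bases before to 50 bases after a start position. That position is the RefSeq gene start for Ifit1, Isg15 and Ifi202b, and it differs from it for the other genes. Ifit3 begins at 34583119 in RefSeq, so its whole window lies after the gene start. Distances below are counted from the start position of each window. Capitals mark its matches. Ifit1 is chr19:34640639-34640938 (+ strand), Ifit3 is chr19:34583279-34583578 (+ strand), Oas1a is chr5:120907476-120907775 (- strand), Trim12a is chr7:104315446-104315745 (- strand) and Ifi202b is chr1:173982795-173983094 (- strand).
Ifit1: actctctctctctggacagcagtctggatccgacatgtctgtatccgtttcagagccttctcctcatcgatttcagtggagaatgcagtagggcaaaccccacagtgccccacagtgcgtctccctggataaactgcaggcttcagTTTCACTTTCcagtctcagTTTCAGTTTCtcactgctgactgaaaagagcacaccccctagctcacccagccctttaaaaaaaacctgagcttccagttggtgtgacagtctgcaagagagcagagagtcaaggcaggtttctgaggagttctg
Ifit3: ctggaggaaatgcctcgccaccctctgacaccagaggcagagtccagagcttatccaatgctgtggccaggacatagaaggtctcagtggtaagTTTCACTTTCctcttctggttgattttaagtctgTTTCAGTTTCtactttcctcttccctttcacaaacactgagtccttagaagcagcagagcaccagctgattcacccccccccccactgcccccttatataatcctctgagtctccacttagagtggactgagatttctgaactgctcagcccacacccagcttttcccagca
Oas1a: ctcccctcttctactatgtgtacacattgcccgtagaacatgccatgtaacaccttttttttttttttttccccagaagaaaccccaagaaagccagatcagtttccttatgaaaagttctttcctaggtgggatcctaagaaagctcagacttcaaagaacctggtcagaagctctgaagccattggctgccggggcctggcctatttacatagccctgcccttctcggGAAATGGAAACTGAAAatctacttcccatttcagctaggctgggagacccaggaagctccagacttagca
Trim12a: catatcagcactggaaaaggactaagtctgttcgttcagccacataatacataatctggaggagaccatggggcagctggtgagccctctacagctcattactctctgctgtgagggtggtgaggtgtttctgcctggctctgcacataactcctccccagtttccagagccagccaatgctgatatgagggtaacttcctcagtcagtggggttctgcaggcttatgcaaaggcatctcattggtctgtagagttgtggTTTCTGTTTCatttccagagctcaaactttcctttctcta
Ifi202b: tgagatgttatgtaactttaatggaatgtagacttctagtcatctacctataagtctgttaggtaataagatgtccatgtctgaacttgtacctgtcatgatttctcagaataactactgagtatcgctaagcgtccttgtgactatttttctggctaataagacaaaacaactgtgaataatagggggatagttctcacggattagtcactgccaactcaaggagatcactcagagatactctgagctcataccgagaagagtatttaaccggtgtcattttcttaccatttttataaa

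The core was present in the windows of 5 of the 10 genes, namely Ifit1, Ifit3, Oas1a, Isg15 and Trim12a, against 3.99% of the 27025 genes in the table. By windows it was 5 of 11, against 3.44% of 32851. Among other genes induced by interferon, 15 of 36 in the table had the core, so it is not particular to this set. Ifit1 and Ifit3 each had 2 separate matches with the same letters, TTTCACTTTC followed by TTTCAGTTTC. They began 104 and 85 bases before the start position of the Ifit1 window, which is the RefSeq gene start. In Ifit3 they began 156 and 122 bases before the start position of its window, which lies inside the RefSeq gene. The distances of these genes are therefore not counted from the same kind of point. Oas1a had 2 overlapping matches that form the run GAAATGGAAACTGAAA, which began 20 bases before the start position of its window. In Trim12a the single match began 10 bases after the start position of its window. The window of Ifi202b held none of these letters in this order, and neither did those of Oasl1, Oasl2, Irf7 and Ifit2. A match is a description of the sequence and was not tied to the values below.

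Of the 9 measured genes, 4 had every knockout value below every control value (Ifi202b, Trim12a, Oas1a and Oasl2), where 5.68% of all genes did. In the other 5 the groups overlapped. The means were lower in the knockout for 8 of the 9, with Ifit1 as the exception. The share was 53.7% of all genes and 46.5% of the 10299 genes above background. The median log2 difference, knockout minus control, was -0.22 over the 9 genes and -0.01 over all genes. No gene on the array passed the limma test at an adjusted p under 0.05, which is 0% in each direction, and 2.58% of all genes had an unadjusted p under 0.05. With ordinary t statistics 3.38% did, over every probe set 1.96%, and without control replicate 3 5.99%, again with 0% past adjustment. The counts of the 9 genes describe values that chose them, and nothing is read from them.

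**Figure D1:**
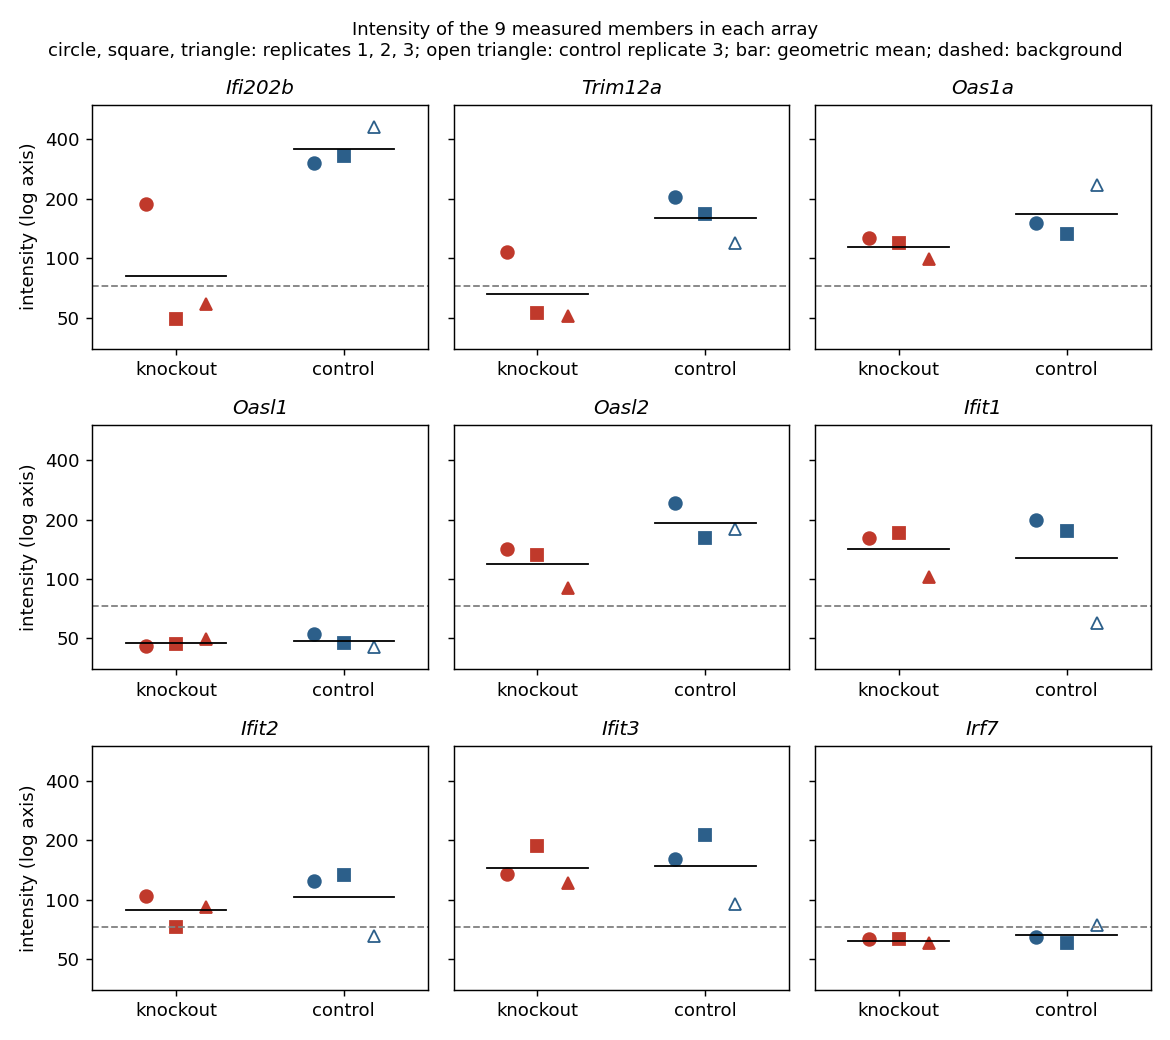
Intensity (log axis) of the 9 measured genes in the 3 knockout arrays (red) and the 3 control arrays (blue); each symbol is 1 array, the open triangle is control replicate 3, bars are geometric means and the dashed line is the background of 72.6. Ifi202b and Trim12a sit below background in knockout replicates 2 and 3, and control replicate 3 is the lowest control array for all Ifit genes and the highest for Ifi202b, Oas1a and Irf7.

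Ifi202b had the largest difference of the 9. It belongs to the Ifi200 family, whose proteins bind DNA, and it restrains the DNA sensor Aim2; its transcript level is known to differ between inbred mouse strains. Whether the sampled mice differed in strain background at Ifi202b or Trim12a was not tested. It read 188.1, 49.6 and 58.5 in the knockout arrays and 302.5, 329.9 and 463.0 in the control arrays. Knockout replicate 1 thus lay between the other knockout arrays, both under background, and the control arrays. The mean was 98.7 ± 77.5 in the knockout and 365.1 ± 85.8 in the control (SD, n = 3 each), and the log2 difference was -2.13 ± 0.51 (SE), or 4.39-fold lower. Without control replicate 3 it was -1.95 ± 0.57. Because 2 knockout arrays read below background, the size of the fold is uncertain.

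Trim12a shared with Ifi202b the intermediate place of knockout replicate 1, while the control arrays ran in the opposite order. It encodes a tripartite motif protein of the group that includes Trim5, proteins known for restricting retroviruses in primates. Its brighter probe set read 107.6, 53.2 and 51.0 in the knockout arrays and 204.3, 167.9 and 119.3 in the control arrays. Knockout replicate 1 was again the only knockout array above background, and the gap to control replicate 3 was small. The mean was 70.6 ± 32.0 in the knockout and 163.8 ± 42.7 in the control (SD, n = 3 each), with a log2 difference of -1.27 ± 0.36 (SE). Without control replicate 3 it was -1.48 ± 0.35. The other probe set of Trim12a disagreed: it read 43.3 to 45.7 in the knockout arrays and 41.8 to 51.5 in the control arrays, below background throughout.

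Genes around Trim12a were then compared, since the Trim5, Trim12, Trim30 and Trim34 genes form a cluster on chromosome 7. Trim30d, separated from Trim12a by 6 protein-coding genes in RefSeq order, read 127.0, 41.4 and 42.3 in the knockout arrays and 195.2, 149.2 and 186.7 in the control arrays. As for Trim12a, knockout replicate 1 lay in between and the other knockout arrays were below background. The log2 difference of Trim30d was -1.54 ± 0.45 (SE), with an unadjusted limma p of 0.0112 that did not pass adjustment (adjusted p = 0.971). Trim30d has a second probe set, which stayed below background in all arrays, at 42.4 to 47.6 in the knockout and 47.9 to 60.0 in the control.

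Trim34a, separated from Trim12a by 1 gene, gave opposite readings from its probe sets. The probe set not used for the gene read 158.3, 71.8 and 57.9 in the knockout arrays and 327.9, 230.2 and 687.4 in the control arrays, again with knockout replicate 1 in between. The probe set used, which had the higher mean log2 intensity, read 183.2, 199.5 and 240.9 in the knockout arrays and 167.4, 161.4 and 175.8 in the control arrays. Here all knockout values lay above all control values, as in 3.33% of all genes, and the log2 difference was 0.30 ± 0.20 (limma adjusted p = 0.971). Trim12c also ran this way, with 230.6, 226.5 and 218.1 in the knockout arrays and 171.8, 170.7 and 194.2 in the control arrays (log2 difference 0.33 ± 0.19, limma adjusted p = 0.971). Trim30a is a known inhibitor of Toll-like receptor signalling. Its brighter probe set overlapped between the groups, with 380.7, 205.8 and 223.7 in the knockout arrays and 413.6, 324.4 and 186.1 in the control arrays. Within the knockout group the high array of this probe set was once more replicate 1. The other probe set of Trim30a was below background in all arrays, at 46.7 to 46.8 in the knockout and 47.7 to 59.8 in the control. Genes of this cluster are close in sequence, and which transcripts each probe set can bind was not tested. Of the 6 measured genes of the cluster other than Trim12a, 0 passed in either direction, and 1 had an unadjusted p under 0.05 in limma and 2 with ordinary t statistics.

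**Figure D2:**
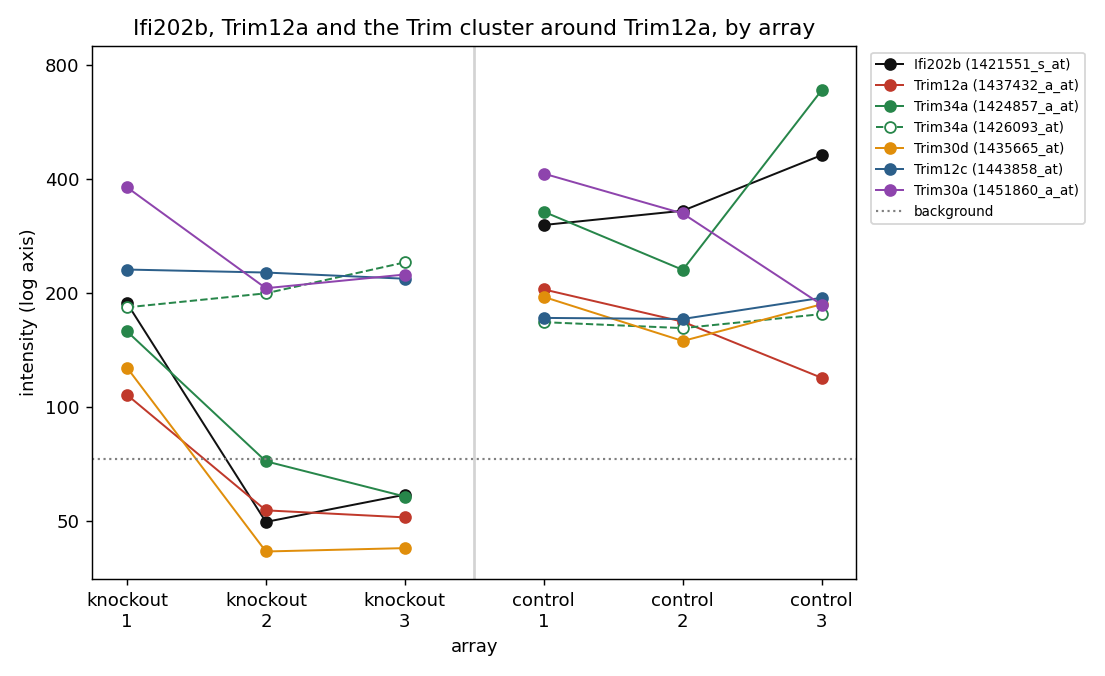
Intensity (log axis) by array for Ifi202b and for the probe sets of the Trim cluster that exceeded 100 in at least 1 array; lines join the values of 1 probe set within a group, hollow points mark the second probe set of a gene, and the dotted line is background. Ifi202b, Trim12a, Trim30d and 1 probe set of Trim34a fall below background in knockout replicates 2 and 3 and not in replicate 1, while Trim12c and the other probe set of Trim34a are higher in the knockout.

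Among the 8 measured neighbours of Trim12a, 4 had groups that did not overlap. Trim5 and Trim30d were lower in the knockout, and Trim34a and Trim12c were higher. Over all genes 5.68% had every knockout value lower and 3.33% had every knockout value higher. Among the 9 measured neighbours of Ifi202b on chromosome 1, 1 had groups that did not overlap. It was Cadm3, a cell adhesion gene named here after its values were seen, with 109.3, 80.8 and 67.4 in the knockout arrays and 146.0, 166.3 and 183.7 in the control arrays (log2 difference -0.97). Knockout replicate 1 was again the knockout array nearest the control arrays. Among the 7 measured genes of the Ifi200 cluster, 5 had a lower knockout mean, all 7 overlapped between groups, and 0 passed in either direction (0 at an unadjusted p under 0.05, in limma and with ordinary t statistics). Mndal, a DNA-binding member, read 414.5, 542.9 and 669.4 in the knockout arrays and 701.6, 620.9 and 616.9 in the control arrays. Here knockout replicate 1 was the lowest of all arrays. A second probe set of Mndal read 257.2, 447.6 and 843.3 in the knockout arrays and 578.3, 593.9 and 502.0 in the control arrays. In that probe set knockout replicate 1 was again the lowest array, and knockout replicate 3 was the highest. Ifi204, which supports DNA sensing upstream of interferon, read 169.4, 116.2 and 123.9 in the knockout arrays and 123.3, 169.7 and 338.3 in the control arrays. Ifi207 had a log2 difference of 0.75 ± 0.43 (limma adjusted p = 0.971), and 0.27 without control replicate 3. Aim2 was at 71.3 to 82.2 in the knockout arrays and 68.1 to 83.4 in the control arrays, close to background.

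Among the Oas and Oas-like genes, Oas1a encodes an enzyme that makes oligoadenylates, which activate RNase L. Oas1a read 126.6, 119.1 and 99.6 in the knockout arrays and 151.6, 132.9 and 235.4 in the control arrays. The groups did not overlap, and the closest values were knockout replicate 1 and control replicate 2. The log2 difference was -0.55 ± 0.28 (SE). It shrank to -0.31 ± 0.18 without control replicate 3, in which the value was highest. Oasl2, an Oas-like protein with ubiquitin-like domains, read 141.5, 132.0 and 90.6 in the knockout arrays and 242.0, 161.2 and 179.0 in the control arrays. Its difference was -0.68 ± 0.28, or 1.60-fold lower, and -0.73 ± 0.28 without control replicate 3. For both genes knockout replicate 3 was the lowest array. Oasl1, which in mouse limits translation of Irf7 mRNA, was below background everywhere, at 45.6 to 49.9 in the knockout arrays and 45.4 to 52.7 in the control arrays, with log2 differences of -0.03 ± 0.07 over 6 arrays and -0.08 ± 0.07 without control replicate 3.

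The Ifit genes, whose proteins bind foreign RNA and block its translation, depended on control replicate 3. Ifit1, the member known to recognise mRNA without cap methylation, read 161.9, 171.1 and 102.7 in the knockout arrays and 197.8, 174.7 and 59.6 in the control arrays. The groups overlapped only through control replicate 3, which was the lowest array and below background. The log2 difference was 0.16 ± 0.49 (SE) over 6 arrays and -0.39 ± 0.26 over 5 arrays without it. Ifit2 read 103.7, 72.3 and 91.9 in the knockout arrays and 124.4, 132.6 and 65.4 in the control arrays, with differences of -0.22 ± 0.32 and -0.54 ± 0.20. Ifit3, which in human cells stabilises IFIT1, read 135.3, 186.0 and 120.8 in the knockout arrays and 160.4, 212.1 and 95.3 in the control arrays. Its differences were -0.03 ± 0.35 and -0.35 ± 0.25, and its groups overlapped also without control replicate 3. Knockout replicate 3 was the lowest knockout array for Ifit1 and Ifit3, as for Oas1a and Oasl2, and for Ifit2 the lowest was replicate 2. The part of RNA quality in these low values of control replicate 3 was not tested.

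Irf7, the factor that amplifies interferon synthesis, was below background in all arrays but control replicate 3. It read 63.1, 63.1 and 60.0 in the knockout arrays and 64.6, 60.6 and 74.4 in the control arrays, a log2 difference of -0.10 ± 0.12 (SE) that became -0.01 ± 0.08 without control replicate 3.

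Without control replicate 3, all 9 measured genes had a lower mean in the knockout, against 52.0% of all genes and 63.9% of the 10299 genes above background. In 6 of the 9 every knockout value then lay below both control values, against 14.2% of all genes. The median log2 difference was -0.39 over the 9 genes and -0.00 over all genes. These counts too describe values that chose the genes. Without both arrays with high Gapdh ratios all 9 were lower as well.

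**Figure D3:**
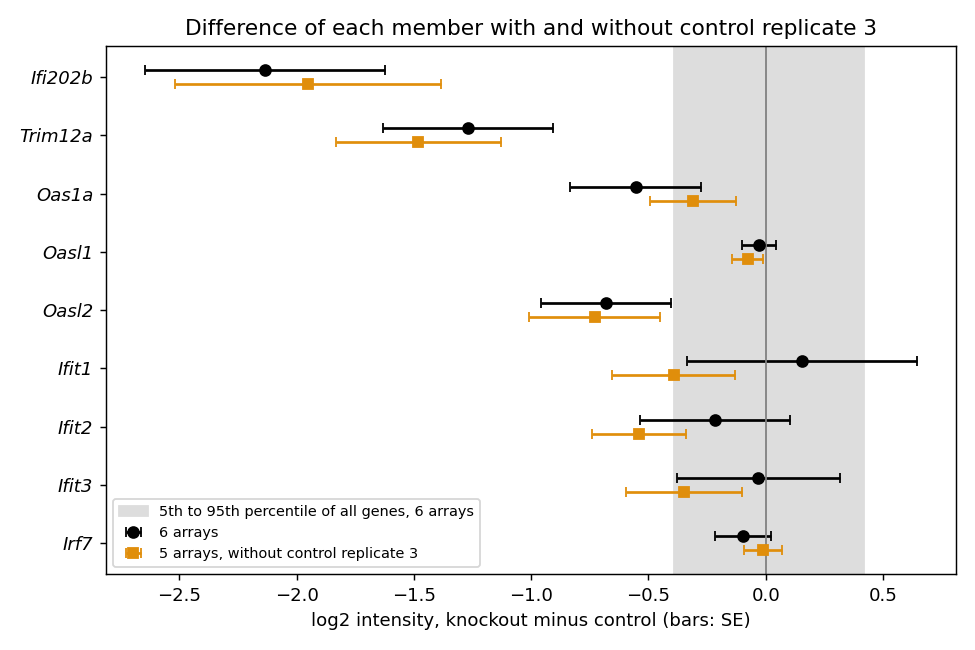
Difference in log2 intensity, knockout minus control, of the 9 measured genes, with standard errors, over all 6 arrays (black circles) and over 5 arrays without control replicate 3 (orange squares); grey marks the 5th to 95th percentile of all genes, -0.39 to 0.42. The grey band is that of the 6-array fit, and none was computed for the 5 arrays. Ifi202b, Trim12a and Oasl2 lie outside this band in both fits, and Ifit1 changes sign between the fits.

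Other genes induced by interferon had mostly lower knockout means, and none passed the test. Of 47 measured genes, 33 (70.2%) were lower, against 53.7% of all genes. Of the 34 above background 23 were lower, against 46.5% of all genes above background. Their median log2 difference was -0.11, and 0 passed in either direction. An unadjusted p under 0.05 was reached by 2 of them in limma and 4 with ordinary t statistics. Ifitm3, which blocks virus entry from endosomes, read 2071, 1773 and 1950 in the knockout arrays and 2685, 2726 and 2144 in the control arrays, without overlap. Its log2 difference was -0.38 ± 0.14 (SE; limma adjusted p = 0.971). Herc6, the ligase for Isg15 in mouse, ran the other way at 0.40 ± 0.17 (limma adjusted p = 0.971). Ube2l6, the conjugating enzyme for Isg15, had the smallest unadjusted p of the list (limma, 0.0260; adjusted p = 0.971) at a log2 difference of -0.13 ± 0.05, and was below background in all arrays. Without control replicate 3 the list had 41 of 47 lower (87.2%), against 52.0% of all genes and 63.9% of those above background. The median was then -0.17, with 0 passing and 7 at an unadjusted limma p under 0.05. The same shares over all genes stand beside the counts of the lists below.

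The GTPases induced mainly by interferon gamma varied strongly between arrays. Of 11 measured, 7 were lower in the knockout (median log2 difference -0.12), and 8 without control replicate 3 (median -0.16), when 3 had an unadjusted limma p under 0.05 and 0 passed adjustment. Iigp1, an immunity-related GTPase, read 290.3, 223.9 and 161.9 in the knockout arrays and 358.2, 897.6 and 150.7 in the control arrays. Igtp, of the same family, read 641.3, 641.3 and 521.3 in the knockout arrays and 843.8, 1199.6 and 437.8 in the control arrays. As for Ifit1, control replicate 3 was the lowest array for both genes and the other control arrays exceeded every knockout array. Their log2 differences were -0.73 ± 0.61 and -0.35 ± 0.35 over 6 arrays (limma adjusted p = 0.971 each), and -1.37 and -0.75 without control replicate 3 (limma adjusted p = 0.802 each). Gbp2, a guanylate-binding protein and the gene with the smallest p of the list, ran otherwise, with 188.9, 219.3 and 147.2 in the knockout arrays and 206.4, 200.6 and 461.7 in the control arrays. Control replicate 3 was the highest array, and the log2 difference was -0.55 ± 0.37 with it (limma adjusted p = 0.971) and -0.16 without it.

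No receptor, kinase or sensor gene upstream of these genes passed the test. Of 15 receptor and JAK-STAT genes 8 were lower (median -0.02), and 14 without control replicate 3 (median -0.16). Jak2, a kinase of the interferon gamma receptor, had -0.30 ± 0.14. Socs3, a feedback inhibitor of the pathway, had -0.72 ± 0.67, or -1.10 without control replicate 3, and the receptor gene Ifnar2 had 0.45 ± 0.45, or -0.06 without it (limma adjusted p = 0.971 for each over 6 arrays). Of 14 nucleic acid sensors and adaptors 10 were lower (median -0.10), with Irf3, the factor that starts interferon beta synthesis, at -0.40 ± 0.20 and its kinase Tbk1 at -0.33 ± 0.18 (limma adjusted p = 0.971 each). Without control replicate 3 the sensors had 8 of 14 lower and a median of -0.01, with Irf3 at -0.26 and Tbk1 at -0.21. All 9 interferon ligands measured, Ifnb1 and Ifng among them, were below background in every array. Of 11 genes of class I antigen presentation 4 were lower (median 0.10), with the immunoproteasome subunit Psmb8 at -0.37 ± 0.22 (limma adjusted p = 0.971). Without control replicate 3, 6 of the 11 were lower, with a median of -0.00. In these 4 lists and the GTPases 0 genes passed in either direction. Over 6 arrays, at an unadjusted p under 0.05 there were 0 in limma and 1 sensor gene with ordinary t statistics. Without control replicate 3, 1 gene of these 4 lists had an unadjusted limma p under 0.05, namely Jak1 (0.0116), and 0 passed adjustment. The log2 difference of Jak1 over 6 arrays was -0.06.

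**Figure D4:**
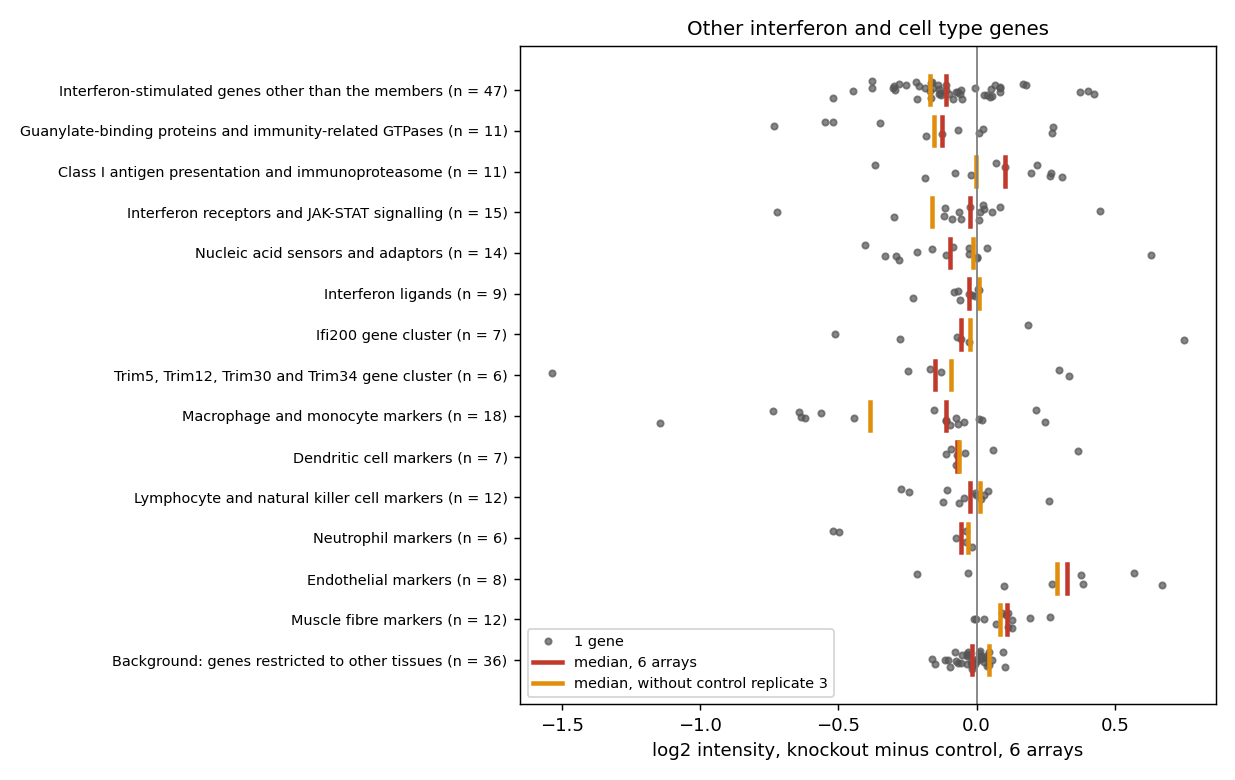
Difference in log2 intensity, knockout minus control, of each gene (grey points) in the lists of interferon and cell type genes, with the list median over 6 arrays (red) and without control replicate 3 (orange). The other interferon-stimulated genes have a median of -0.11 and macrophage markers of -0.11, which becomes -0.38 without control replicate 3.

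Macrophage markers mostly had lower knockout means, and none passed the test. Of 18 markers 14 had a lower knockout mean (median log2 difference -0.11), against 53.7% of all genes and 46.5% of those above background. Without control replicate 3 it was 16 (median -0.38), against 52.0% of all genes and 63.9% of those above background. The 4 with a higher mean over 6 arrays were C1qa (0.25), Mrc1 (0.22), Itgam (0.02) and C1qc (0.01). Cd163 and Lyve1 were at -0.07 and -0.08. Their summed intensity was 7676 to 12660 in the knockout arrays and 9160 to 14963 in the control arrays, with the highest knockout sum in replicate 1. Cx3cr1 and Itgam were below background in all arrays. Fcgr1, an Fc receptor gene that interferon also induces, read 71.8, 45.0 and 58.7 in the knockout arrays and 103.8, 84.5 and 82.5 in the control arrays, and with every knockout array below background its log2 difference was -0.64 ± 0.21 (limma adjusted p = 0.971). Folr2 and Cd209f, markers of resident macrophages, had -0.63 ± 0.25 and -0.56 ± 0.23 (limma adjusted p = 0.971 each). No marker passed in either direction, and an unadjusted p under 0.05 was reached by 4 in limma and 2 with ordinary t statistics. Of 12 lymphocyte and natural killer cell markers 10 were below background in all arrays, and of 7 dendritic cell markers 6 were, Siglech of plasmacytoid cells among them. Of 6 neutrophil markers 4 were below background throughout, and S100a9 was at -0.52 ± 0.40, or -0.92 without control replicate 3, when 2 of the 6 (S100a8 and S100a9) had an unadjusted limma p under 0.05 and 0 passed adjustment. Endothelial markers were mostly higher, with 6 of 8 (median 0.33) and Cdh5 at 0.57 ± 0.19 (limma adjusted p = 0.971 each). The part of these cells in the values of the interferon-induced genes was not tested.

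The genes most like the interferon-induced ones over the 6 arrays were sought among 10292 other genes above background. The 7 measured Oas, Ifit and Irf7 genes did not run alike. Control replicate 3 was the lowest control array for the Ifit genes and the highest for Oas1a and Irf7. A gene close to their mean profile is therefore not close to each of them. This mean profile was highest in control replicate 1 and lowest in knockout replicate 3, at 0.29 and -0.28 log2 units from its average. Closest to it were Spc25, a kinetochore component, with a Pearson r of 0.998 over 6 arrays, then the cyclin gene Ccne2, Kctd21, Zfp397 and Zranb3 at 0.978 to 0.985. Closest to Ifi202b were Tctn3, Med1, a Mediator subunit, Pcolce, an enhancer of procollagen processing, Sinhcaf and Trim30d, at 0.978 to 0.989. These are descriptions over 6 arrays that share control replicate 3. Trim30d alone among these 5 had a range above 1 log2 unit (2.24), as Ifi202b did, whereas the others spanned 0.29 to 0.60.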

How the data were processed

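Quadriceps RNA of 6 samples was hybridised to 1 array each. Per the labels' protocols, total RNA was amplified and labelled as biotin cDNA. Each deposited value is the linear intensity of 1 probe set. Per the submitters' processing notes GCOS and RMA were used; their versions and any rescaling were not stated. RMA compresses fold changes of dim genes. The platform annotation paired 34958 of 45101 probe sets with 1 gene, 932 with several and 9211 with none. Of the single-gene probe sets, 34754 were found in RefSeq (GRCm38.p6) and 0 symbols changed. Where a gene had several, the one with the highest mean log2 intensity stood for it, which gave 18194 genes.

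The log2 intensities, without pseudocount, entered limma 3.58.1 (R 4.3.3) for all genes at once. The model held the group alone, with trended eBayes, two-sided p-values and Benjamini-Hochberg adjustment at 0.05. The script was tested on simulated data. No label states that the samples are different animals. A p-value therefore covers only the variation among these 6 arrays, possibly technical, and so few arrays limit the precision.

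The members and gene lists were chosen with earlier results of these data known. Genes outside the set were named by a rule: up to 3 with the smallest p in each list, the 5 most like the Oas, Ifit and Irf7 mean and the 5 most like Ifi202b, and all genes of the 2 gene clusters where described. The alternatives were a replicate block, normalization, probe set use, a floor, a filter, array weights and leaving out arrays.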

Additional observations from a re-analysis of the deposited data

How the results depend on the processing

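Ifi202b, Trim12a, Oas1a, Oasl2, Ifit2 and Irf7 kept a lower knockout mean under every alternative run that gave them a difference. The groups of Ifi202b, Trim12a, Oas1a and Oasl2 do not overlap, so the block, array weights and leaving out arrays could not change their sign. All these genes were also chosen by this difference, so nothing is read from the kept sign. Ifi202b ranged from -2.74 to -1.59 on the log2 scale, Trim12a from -1.62 to -0.65, Oas1a from -0.72 to -0.31 and Oasl2 from -0.82 to -0.48. Trim12a was at -0.65 with the mean of its probe sets, of which 1 is below background. Ifit1 changed sign under 3 alternatives, without control replicate 3 (-0.39), with array weights (-0.43) and without both arrays with high Gapdh ratios (-0.53). Ifit3 changed sign under 4, to values of 0.02 to 0.23, each leaving out 1 array, and without both arrays with high Gapdh ratios it was -0.53. Oasl1, below background, changed sign without control replicate 1 (0.03).

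The median over the measured genes was -0.41 with array weights, -0.55 over the 7 genes above background and -0.53 without both arrays with high Gapdh ratios, an alternative chosen after seeing the data. Leaving out 1 array gave medians of -0.39 to -0.11, 6 to 9 of the 9 genes lower, and 26 to 41 of the 47 other interferon-induced genes lower. The count of genes past the threshold was 0 in all alternatives but the floor at background, where it was 1, Gm32688. All its control values were set to the floor there, which leaves them no spread.

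With the replicate number as a block, 0 genes passed. The median (-0.22) and counts were as without it and could not differ, since each block held 1 array of each group. The numbers did not pair the arrays: deviations from the group means correlated at 0.17, -0.13 and -0.14 for replicates 1 to 3. Of 182 alternative values, 176 moved by less than the spread between replicates or within 1.5 times the count. The 176 include block values that could not differ, and also the sign changes of Ifit1, whose spread between replicates is wide. Genes near background, where RMA compresses differences, are limited by signal.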

Other observations

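Ifi202b and Trim12a shared a pattern that was described after their values were seen: knockout replicates 2 and 3 at or below background, knockout replicate 1 above it, and all control arrays above knockout replicate 1. Over all 45101 probe sets 25 had this pattern, and over the 18194 genes 14 did. With the further requirement, also set after the values were seen, that knockout replicate 1 lay at least 1 log2 unit above both other knockout arrays, 5 probe sets had it. They were those of Ifi202b, Trim12a, Trim30d and Trim34a described above and a probe set annotated with both LOC100044068 and Ifi202b. Ifi202b and Trim12a defined the pattern, so their own probe sets are no addition to it. Trim30d and Trim34a are neighbours of Trim12a whose values are already described above, so nothing independent is read from them. The probe set used for Trim34a ran the other way, and which transcripts each probe set can bind was not tested.

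The probe set annotated with LOC100044068 and Ifi202b read 156.9, 40.0 and 41.5 in the knockout arrays and 223.8, 243.5 and 244.9 in the control arrays, and cannot be assigned to either gene. The probe set annotated with Isg15 and Gm9706 read 59.7, 56.3 and 61.3 in the knockout arrays and 60.4, 50.6 and 86.4 in the control arrays, with control replicate 3 alone above background.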
